A study of Homo sapiens with 9 samples.

Results

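The genes described here encode the actins and the proteins that bind actin in smooth muscle: ACTA1, ACTA2, ACTB, ACTC1, ACTG1 and ACTG2, which are the 6 actin isoforms, and TAGLN, CNN1, MYL9 and TPM1. Every probe set was taken whose only gene symbol in the array's annotation is 1 of these 10 genes, with the control probe sets left aside. This gave 22 of the 54613 probe sets of the array and 9 of the 10 genes, among 19775 genes in all. ACTG1 has no probe set of its own: the 9 probe sets that list it also list ACTB, and they are described apart from the 22. The genes were selected on family membership with earlier results of these same arrays known, among them the high ACTA1 in xenografts, so the values of the 22 probe sets are given as a description, with no p-value.

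RNA came from Rh30, a human fusion-positive rhabdomyosarcoma (FP-RMS) cell line that carries the PAX3-FOXO1 fusion, and was hybridised to Affymetrix U133 Plus 2.0 arrays, 3 for each of 3 groups. The adherent cultures had RPMI medium and serum (FBS). Spheres grew in Neurobasal media with 1X B27 and the growth factors bFGF at 80 ng/ml and EGF at 40 ng/ml, beside insulin at 50 µg/ml. For the xenografts, which grew in SCID/beige mice, the study's methods name adherent cells injected into the left gastrocnemius, a leg muscle, in PBS. The sample labels name Matrigel and the flank, under the skin, for cells that had grown as adherent cultures or as spheres. The sources used here do not settle which of these routes the arrayed tumors came from. All groups are the same cell line, and the paper calls the arrays biological triplicates. Any p-value below measures the spread between these arrays. The probes are human, so RNA of mouse host cells would be seen only by cross-hybridisation.

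Actin monomers assemble into filaments, and the isoforms differ at only a few residues. ACTA1 is the actin of adult skeletal muscle and ACTC1 that of the heart and of the developing or regenerating skeletal muscle fibre. ACTA2 and ACTG2 are the actins of vascular and of visceral smooth muscle, and ACTB and ACTG1 form the cytoskeleton of nearly all cells. Transcription of muscle actins and of many of their partners depends on serum response factor (SRF), which binds a DNA motif called the CArG box, and on its coactivators of the myocardin family (MYOCD, MRTFA and MRTFB), of which the MRTFs are held back by free actin monomers. Rhabdomyosarcoma cells carry out part of the program of skeletal muscle and seldom complete it.

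The promoters of 4 actin genes are shown because they hold the CArG box, the motif by which SRF reaches the genes of this family. RefSeq sequences of the GRCh38.p14 build, from 250 bases before to 50 after a transcription start, were matched by symbol for 7 of the 10 genes in 10 windows, with none for ACTB, TAGLN and MYL9. Each stretch below runs from 120 to 21 bases before the start, written 5′ to 3′ on the strand of the gene. The capitals mark the CArG box, the TATA box letters TATAAA and the letters CATTCC, which are the core of the site of TEAD factors, each searched on either strand. The stretches lie at chr1:229434115-229434214 (minus strand) for ACTA1, chr15:34795570-34795669 (minus strand) for ACTC1, chr2:73892888-73892987 (plus strand) for ACTG2 and chr17:81512820-81512919 (minus strand) for ACTG1.
ACTA1: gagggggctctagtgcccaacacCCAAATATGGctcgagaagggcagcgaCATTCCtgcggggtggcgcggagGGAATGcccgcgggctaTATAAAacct
ACTC1: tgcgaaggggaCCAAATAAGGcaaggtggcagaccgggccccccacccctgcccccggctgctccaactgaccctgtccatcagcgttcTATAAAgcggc
ACTG2: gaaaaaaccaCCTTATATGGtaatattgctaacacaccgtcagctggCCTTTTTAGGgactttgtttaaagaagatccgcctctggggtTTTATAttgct
ACTG1: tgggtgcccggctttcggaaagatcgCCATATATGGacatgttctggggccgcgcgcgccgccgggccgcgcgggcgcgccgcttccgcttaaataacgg

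The CArG box was found in 4 of the 10 windows, and in 454 of all 35116 windows of the table (1.29%). It began 97 bases before the start in ACTA1, 109 in ACTC1, 94 in ACTG1, and 110 and 73 in ACTG2, which has a pair of them. The letters TATAAA stand in the stretches of ACTA1 and ACTC1 on the strand of the gene. In that of ACTG2 they stand on the opposite strand, and it reads TTTATA as printed. Counting either strand, 11.5% of all windows hold them. The letters CATTCC stand in that of ACTA1, once on each strand, and in 14.0% of all windows. The windows of ACTA2, TPM1 and CNN1 hold no CArG box, which says only that its letters are not within these windows. A match is a description of the sequence and no measurement of binding.

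The values are log2 RMA values, on which 1 unit doubles the signal, and the differences, their SE and intervals come from a limma fit in which the 3 groups share the estimate of the spread.

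ACTA1 was the member that differed most between the groups, and its order was xenografts, then adherent cells, then spheres. Its probe set 203872_at had log2 values of 8.40, 8.48 and 8.26 on the xenograft arrays, 5.19, 5.14 and 5.14 on the adherent arrays, and 3.76, 4.20 and 4.51 on the sphere arrays. All 3 groups were apart, with no array of one inside the range of another. The xenograft mean was 8.38 ± 0.11 (SD, n = 3) against 5.16 ± 0.03 in adherent cells, a log2 difference of 3.22 (SE 0.16, 95% confidence interval 2.88 to 3.57), or 9.34-fold. The sphere mean of 4.16 ± 0.38 was lower than the adherent mean by a log2 difference of -1.00 (SE 0.16, interval -1.34 to -0.66), or 2.00-fold. Between the extremes, xenografts were above spheres by 4.22 log2 (SE 0.16), or 18.7-fold. On all 3 sphere arrays this skeletal muscle actin lay below the median probe set of the array, so the sphere level is that of a dim probe set.

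ACTC1, the cardiac and fetal muscle actin, showed another order, with adherent cells above both other groups. The values of 205132_at were 12.75, 12.85 and 12.75 on the adherent arrays, 11.24, 11.40 and 11.37 on the sphere arrays, and 11.60, 11.55 and 11.45 on the xenograft arrays. The adherent arrays stand more than 1 log2 above every other array, while the ranges of spheres and xenografts are next to each other and do not overlap. Spheres were at 0.367 times the adherent level (log2 difference -1.44, SE 0.09) and xenografts at 0.421 times (log2 difference -1.25, SE 0.09). Xenografts and spheres differed by 0.20 log2 (SE 0.09, interval -0.001 to 0.40). On all 9 arrays its probe set lay far above the median of the array.

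The shift between these striated muscle actins was also read within each array, as ACTA1 minus ACTC1 in log2, where a scaling of the whole array cancels. The difference was -7.56, -7.71 and -7.61 on the adherent arrays, -7.48, -7.20 and -6.86 on the sphere arrays, and -3.20, -3.07 and -3.19 on the xenograft arrays. The xenograft arrays are apart from all others by more than 3 log2, and the size of the difference on 1 array has no meaning of its own because the probe sets hybridise differently. The mean was -7.62 ± 0.08 (SD) for adherent cells, -7.18 ± 0.31 for spheres and -3.15 ± 0.07 for xenografts. The xenograft mean exceeded the adherent mean by 4.47 and the sphere mean by 4.03, while spheres and adherent cells were 0.45 apart.

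**Figure D1:**
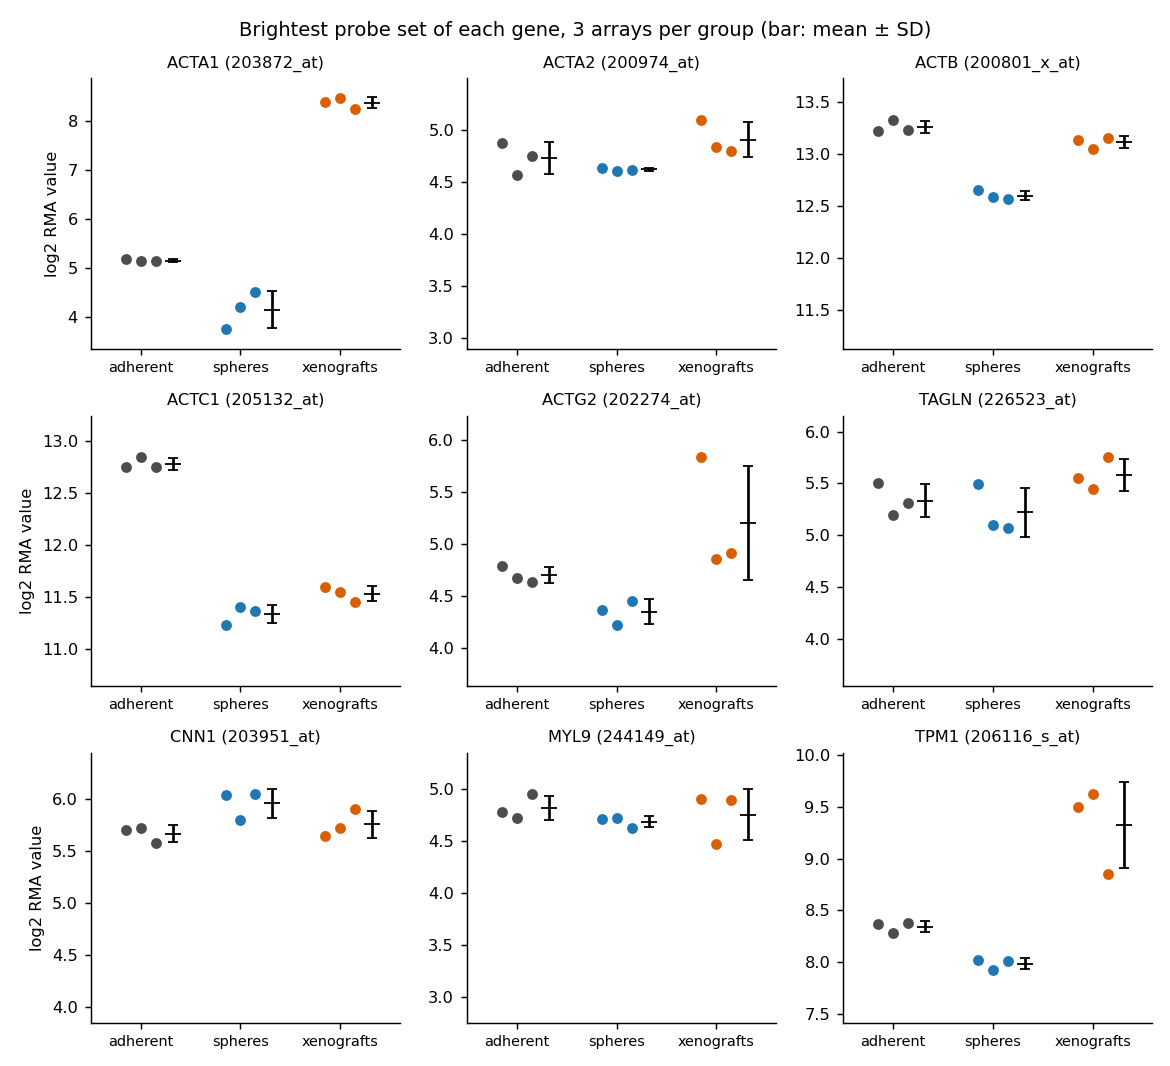
Log2 RMA value (y axis) of the brightest probe set of each of the 9 measured genes on every array, grouped as adherent cells, spheres and xenografts (points), with the mean and SD of the 3 arrays beside them. The axis of ACTA1 is longer than the others. ACTA1 is highest in xenografts, ACTC1 highest in adherent cells, ACTB lowest in spheres, and the groups of ACTA2, TAGLN, CNN1 and MYL9 lie within 0.4 log2 of each other.

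Of the smooth muscle actins, ACTA2 was nearly level over the 3 groups, but its signal was dim. Its brightest probe set, 200974_at, lay below the median of the array on 7 of the 9 arrays. It had values of 4.87, 4.57 and 4.75 in adherent cells, 4.64, 4.61 and 4.62 in spheres, and 5.10, 4.83 and 4.80 in xenografts. The sphere arrays lie inside the adherent range, and the xenograft arrays overlap the adherent but not the sphere arrays. Compared with adherent cells, the log2 difference was -0.11 (SE 0.11, interval -0.35 to 0.13) in spheres and 0.18 (SE 0.11, interval -0.06 to 0.42) in xenografts, and compared with spheres xenografts were 0.29 higher, or 0.34 without xenograft replicate 3. The other probe sets of ACTA2, 243140_at and 215787_at, ran from 2.48 to 2.77 and from 2.16 to 2.59 over the 9 arrays, below the median of each array, and their differences ranged from -0.09 to 0.18.

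ACTG2, the visceral smooth muscle actin, followed the order of ACTA1 on a much smaller scale. The values of 202274_at were 4.79, 4.68 and 4.64 in adherent cells, 4.37, 4.22 and 4.46 in spheres, and 5.84, 4.86 and 4.92 in xenografts. No groups overlap, but xenograft replicate 1 is almost 1 log2 above its fellow arrays, which lie close to the adherent ones. The difference between xenografts and adherent cells was 0.50 log2 (SE 0.21), and it was 0.19 without xenograft replicate 1 and 0.68 without xenograft replicate 2. Against spheres xenografts were 0.85 log2 higher (SE 0.21), and 0.54 without xenograft replicate 1. Spheres were below adherent cells by a log2 difference of -0.35 (SE 0.21). The second probe set, 241148_at, lay between 4.23 and 5.03 on all arrays with overlapping groups.

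TAGLN, CNN1 and MYL9, which encode transgelin, calponin and the regulatory light chain of smooth muscle myosin, lay between 3.17 and 6.05 log2 on every array. TAGLN 226523_at had values of 5.50, 5.19 and 5.31 in adherent cells, 5.50, 5.10 and 5.07 in spheres, and 5.55, 5.45 and 5.75 in xenografts. Adherent arrays overlap with both other groups, and spheres differed from adherent cells by -0.11 and xenografts by 0.25. The dimmer probe set 1555724_s_at gave -0.29 and 0.10, and 0.38 for xenografts against spheres. The dimmest, 205547_s_at, gave -0.40 and -0.30, so the probe sets of TAGLN agree that spheres were not above adherent cells but disagree in sign for xenografts. Its -0.40 was -0.33 without adherent replicate 2. Both 1555724_s_at and 205547_s_at lay below the median of the array on all 9 arrays.

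CNN1 lay between 5.57 and 6.05 log2 on all arrays. The values of 203951_at were 5.70, 5.73 and 5.57 in adherent cells, 6.03, 5.80 and 6.05 in spheres, and 5.64, 5.73 and 5.90 in xenografts. The sphere arrays were all above the adherent arrays, with a log2 difference of the means of 0.29 (SE 0.11, interval 0.06 to 0.53), and the xenograft arrays overlap with both. MYL9 201058_s_at had 3.54, 3.44 and 3.62 in adherent cells, 3.17, 3.17 and 3.29 in spheres, and 3.51, 3.58 and 3.89 in xenografts. This MYL9 probe set was dim, below the median of the array on all 9 arrays. Spheres stood lowest in it, with a log2 difference of -0.32 from adherent cells. Xenografts were 0.45 above spheres and 0.13 above adherent cells. The brighter MYL9 probe set, 244149_at, differed from adherent cells by -0.13 in spheres and -0.06 in xenografts, and xenografts from spheres by 0.07, with overlapping arrays. It lay below the median of the array on 6 of the 9 arrays.

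TPM1 encodes α-tropomyosin, a coiled coil that lies along the actin filament and is spliced into many isoforms in striated muscle, smooth muscle and nonmuscle cells. Its 6 probe sets differed in direction in xenografts. The brightest, 206116_s_at, had values of 8.37, 8.28 and 8.38 in adherent cells, 8.02, 7.92 and 8.01 in spheres, and 9.50, 9.62 and 8.85 in xenografts. It was thus highest in xenografts, by 0.98 log2 (SE 0.16) or 1.97-fold over adherent cells and by 1.34 over spheres, while spheres were slightly below adherent cells with a log2 difference of -0.36 (SE 0.16). The probe set 210986_s_at had 8.53, 8.73 and 8.46 in adherent cells, 7.91, 7.67 and 7.82 in spheres, and 7.15, 6.98 and 6.42 in xenografts. Here the order is the reverse, with xenografts lowest, at 0.303 times the adherent level (log2 difference -1.73, SE 0.17), and spheres between (log2 difference -0.78, SE 0.17).

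The TPM1 probe set 210987_x_at went with 210986_s_at. It had values of 8.07, 8.10 and 8.08 in adherent cells, 7.45, 7.21 and 7.31 in spheres, and 6.92, 6.67 and 6.29 in xenografts, so that spheres differed from adherent cells by -0.76 and xenografts by -1.45 log2. All 3 groups are apart in it, in the same order as in 210986_s_at. The probe set 206117_at had 6.67, 6.33 and 7.80 in xenografts against 7.36, 7.52 and 7.44 in adherent cells, so that xenograft replicate 3 lies above every adherent array and the other xenografts below. Its xenograft difference of -0.51 from adherent cells became -0.94 without that array, and its -0.21 from spheres became -0.64. With each array left out in turn, these differences ran from -0.94 to -0.20 and from -0.64 to 0.09, a change of sign. The probe set 238688_at was highest in spheres, at 5.72, 5.65 and 5.71 against 5.27, 5.23 and 5.39 in adherent cells (log2 difference 0.40, SE 0.09), and xenografts differed from adherent cells by -0.01. The dimmest, 1558532_at, ran from 2.61 to 3.17, with the xenograft arrays just above the adherent ones and the sphere arrays overlapping both.

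Read within each array, 206116_s_at minus 210986_s_at was -0.16, -0.45 and -0.07 in adherent cells, 0.11, 0.26 and 0.20 in spheres, and 2.35, 2.64 and 2.43 in xenografts. The xenograft arrays, replicate 3 among them, are together here and stand more than 2 log2 above all the others. The xenograft mean exceeded the adherent mean by 2.70 and the sphere mean by 2.28, and the sphere mean exceeded the adherent mean by 0.42. The annotation gives the accession behind 206116_s_at as a RefSeq transcript and those behind 210986_s_at and 210987_x_at as separate cDNA records. Which exons the probes match was not analysed here, and no level of TPM1 as a whole can be given from probe sets that disagree in direction.

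**Figure D2:**
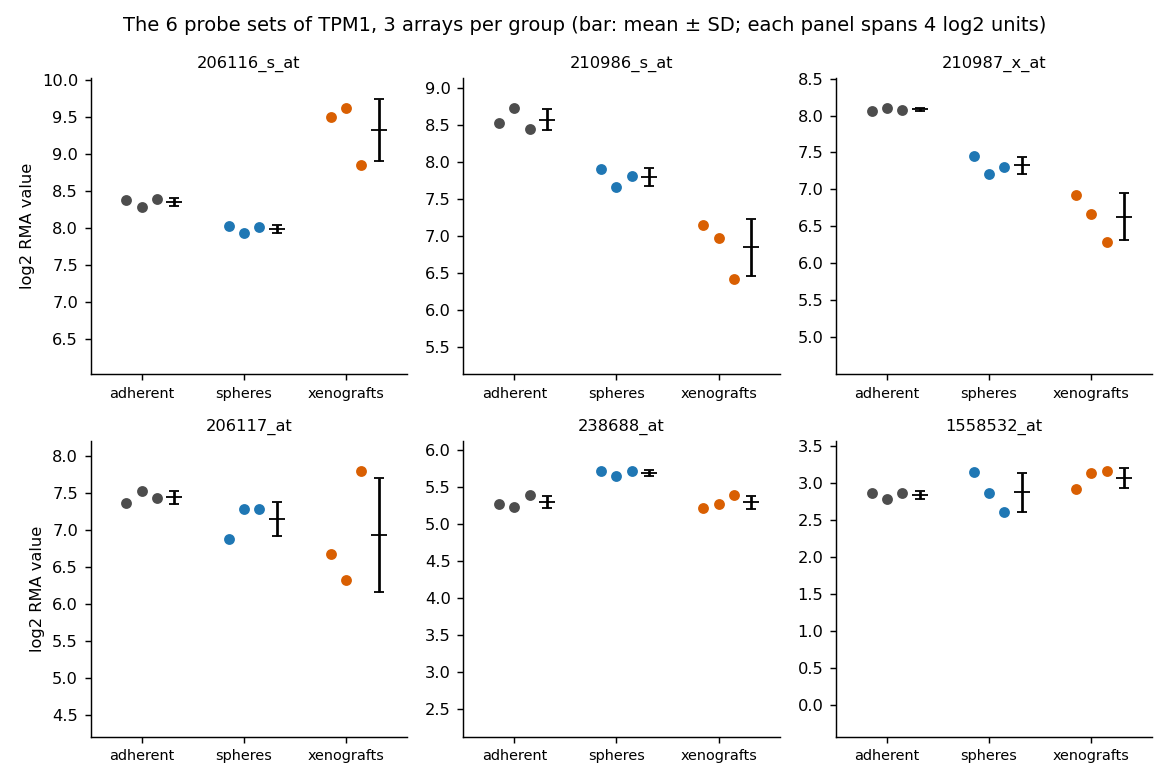
Log2 RMA values (y axis) of the 6 TPM1 probe sets on each array (points) by group, with the mean and SD of 3 arrays, on axes of equal length. 206116_s_at is highest in xenografts (mean 9.32) while 210986_s_at and 210987_x_at are lowest there (means 6.85 and 6.63), and xenograft replicate 3 stands alone in 206117_at.

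ACTB, the cytoplasmic β-actin that often serves as a reference gene, was lowest in spheres in each of its 3 probe sets. The values of 200801_x_at were 13.22, 13.33 and 13.23 in adherent cells, 12.65, 12.59 and 12.56 in spheres, and 13.14, 13.05 and 13.15 in xenografts. Spheres were at 0.633 times the adherent level (log2 difference -0.66, SE 0.09), apart from all other arrays. The other probe sets, 213867_x_at and 224594_x_at, gave -0.51 and -0.55. Xenografts were close to adherent cells, with log2 differences of -0.15, -0.08 and -0.11 in these probe sets, and above spheres by 0.51, 0.44 and 0.44.

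The array also carries 3 control probe sets for ACTB, at the 3′ end, the middle and the 5′ end of the transcript, which were not used to choose the members and measure the gene again. The 3′ set had log2 values of 12.98, 13.15 and 13.08 in adherent cells, 12.46, 12.45 and 12.46 in spheres, and 12.98, 12.85 and 12.86 in xenografts. The 5′ set had 10.91, 10.49 and 10.64, then 9.32, 9.15 and 9.31, and then 10.57, 10.55 and 10.11 in the same order of groups. In all 3 control sets the spheres lay below every adherent and every xenograft array. The log2 difference of spheres from adherent cells grew along the transcript, from -0.61 in the 3′ set to -0.89 in the middle and -1.42 in the 5′ set. For each of these the exact permutation test gave a two-sided p of 0.1, the smallest that 3 against 3 arrays allow, or 0.133 adjusted over the 12 tests of controls. For xenografts against adherent cells the differences were -0.18 (exact p = 0.1), 0.08 (exact p = 0.4) and -0.27 (exact p = 0.4).

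The value of the 3′ minus the 5′ control, a measure of RNA quality and of the length of the labelled product, moved with the sphere group. It was 3.20 ± 0.09 log2 (SD) in spheres, 2.39 ± 0.30 in adherent cells and 2.48 ± 0.23 in xenografts. Spheres exceeded adherent cells by 0.81 (exact permutation test, p = 0.1) and xenografts were below spheres by a difference of -0.72 (exact permutation test, p = 0.1), while xenografts and adherent cells were 0.09 apart (exact permutation test, p = 0.8). The part of this shift in the lower ACTB, ACTC1 and ACTA1 of spheres was not tested. The 3′ control of ACTB was 0.61 log2 lower in spheres, and the part of RNA quality in that difference was not tested either.

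ACTG1, the cytoplasmic γ-actin, can be read only through the 9 probe sets that the annotation gives to ACTG1 and ACTB together. Over these sets the values ran from 13.62 to 13.88 in adherent cells, 13.46 to 13.70 in spheres and 13.65 to 13.93 in xenografts. Within each of the 9 sets the sphere arrays lay below the adherent and below the xenograft arrays. The sets measure the same transcripts on the same arrays, so their agreement is not independent. How often all probe sets separate in this way is not given here. The log2 difference of spheres from adherent cells was -0.21 to -0.14 with a median of -0.16, and that of xenografts from spheres was 0.14 to 0.23 with a median of 0.17. For spheres against adherent cells the limma interval spanned both signs in every set but 211995_x_at (-0.39 to -0.02). For xenografts against spheres it did so in every set but 211995_x_at (0.04 to 0.41) and 212363_x_at (0.05 to 0.41). Between xenografts and adherent cells it was -0.02 to 0.07, and the sign of the median, 0.01, turned to -0.05 after quantile normalization and to -0.04 after centring each array on its median. These probe sets are near the top of the range of the array, so the size of their differences is not set against that of other probe sets. The signals of γ-actin and β-actin cannot be told apart in them.

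**Figure D3:**
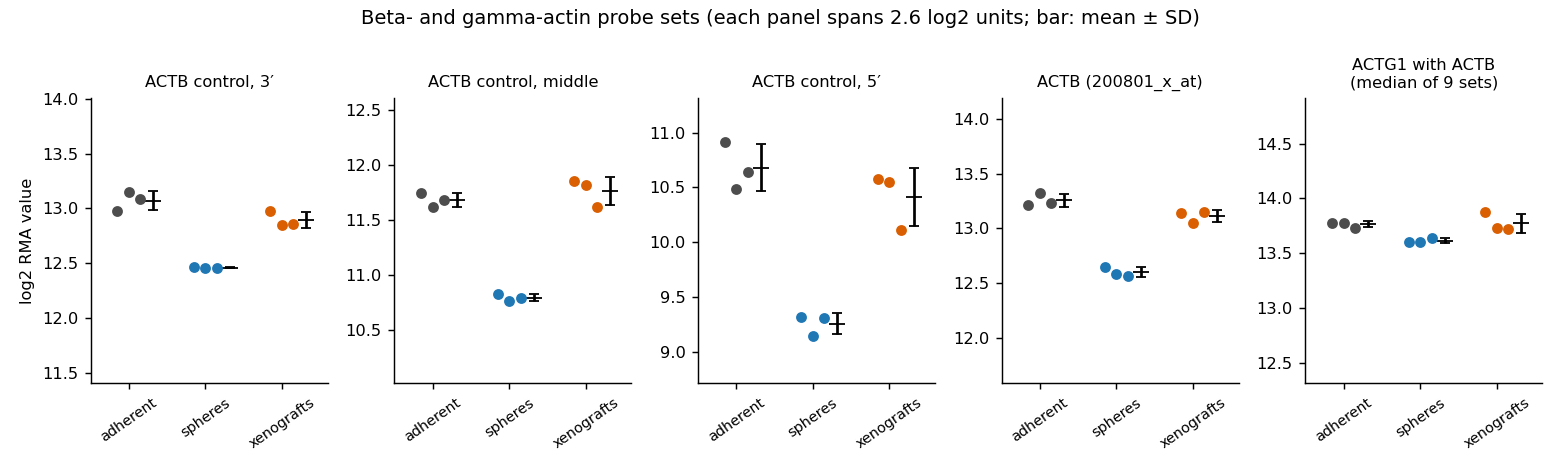
Log2 RMA value (y axis) on each array (points, with mean and SD of 3 arrays) of the 3 ACTB control probe sets, of 200801_x_at and of the median of the 9 sets shared by ACTG1 and ACTB, on axes of equal length. The sphere arrays are lowest in every panel, by 0.61 log2 in the 3′ control and 1.42 in the 5′ control.

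For the counts that follow, a probe set is called when the p-value of its difference, adjusted over all 54613 probe sets, is under 0.05. Between spheres and adherent cells 9 of the 22 probe sets were called, 1 higher and 8 lower, in 5 genes. Over all probe sets 26.0% were called in this comparison, 13.3% higher and 12.6% lower. The called members are not named, since a call on a single member would test values known when it was chosen. The median log2 difference over the 22 was -0.31, against -0.02 over all probe sets.

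Between xenografts and adherent cells 5 of the 22 were called, 2 higher and 3 lower, in 3 genes. Over all probe sets 23.0% were called, 9.78% higher and 13.2% lower. This split depends on the scaling: 5343 probe sets were higher and 7218 lower as deposited, and 3761 higher and 8247 lower with each array centred on its median. The median over the 22 was 0.09, against 0.07 over all probe sets. Between xenografts and spheres 11 of the 22 were called, 8 higher and 3 lower, where 39.1% of all probe sets were called, 20.6% higher and 18.5% lower. The median over the 22 was 0.22, against 0.10 over all probe sets. The comparisons share arrays in pairs, and nothing about the members is read from these counts, since the members were chosen with the results known.

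**Figure D4:**
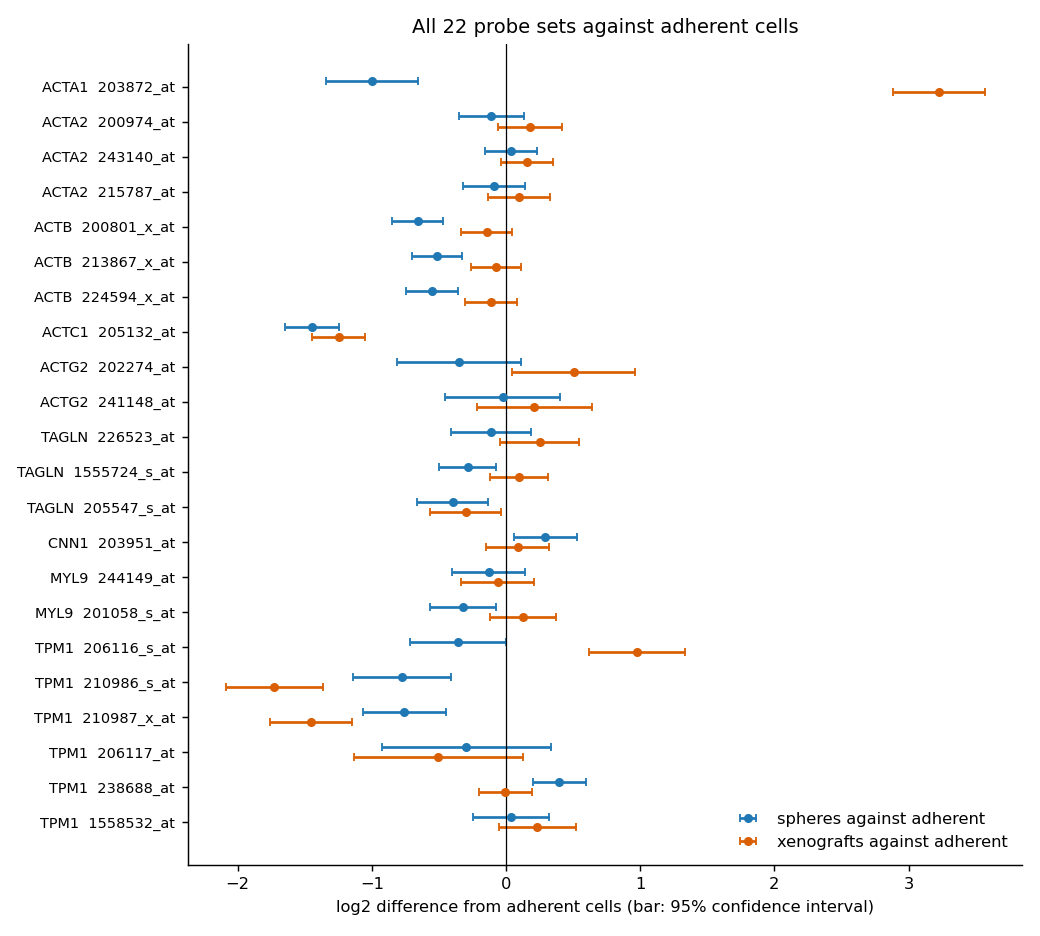
Log2 difference (x axis) of each of the 22 probe sets from adherent cells, in spheres and in xenografts, with the 95% confidence interval of the limma fit (bars). ACTA1 lies at -1.00 in spheres and 3.22 in xenografts, ACTC1 below -1 in both, and the probe sets of TPM1 lie on both sides of 0 in xenografts.

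The genes that work beside the members were counted in the same fit from lists of each role, with 1 probe set per gene. These lists, too, were chosen with earlier results of these data known. Most genes named from them were picked for large differences, so their adjusted p-values are descriptive and no independent test. The same holds for the cell type markers below. Over all 19775 genes, 29.8% were called between spheres and adherent cells (13.5% higher and 16.3% lower), 26.9% between xenografts and adherent cells (12.6% and 14.3%) and 44.0% between xenografts and spheres (25.7% and 18.3%). Of 18 measured partners of the thin filament, which include troponins, tropomodulins, leiomodins and nebulin, 2 were higher and 3 lower in spheres and 0 higher and 6 lower in xenografts than in adherent cells, with medians of -0.06 and 0.06. TNNI1, the troponin I of slow muscle, fell in both, to 0.286 times in spheres (limma adjusted p = 1.37e-06) and 0.0911 times in xenografts (adjusted p = 2.97e-08). Its log2 mean was 11.33 ± 0.06 in adherent cells, then 9.52 ± 0.07 in spheres and 7.87 ± 0.27 in xenografts, so that it was lowest where ACTA1 was highest. LMOD3, which nucleates actin filaments in skeletal muscle, rose by 2.78 log2 in spheres to a mean of 5.78 (adjusted p = 1.07e-07) and was at 2.57 in xenografts. Its adherent and xenograft means are those of a dim probe set, below the median of every array. In xenografts TNNT1, the slow troponin T, and NEB, which spans the thin filament, fell to 0.348 and 0.445 times the adherent level (adjusted p = 3.09e-06 and 6.01e-05). TNNI3, the cardiac troponin I, was higher in spheres by 1.04 log2 and lower in xenografts by a difference of -1.05. Its means of 4.30 in adherent cells and 3.25 in xenografts were dim.

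Of 23 measured smooth muscle genes beside the members, 1 was higher and 10 lower in spheres than in adherent cells, with a median log2 difference of -0.42, and 3 were higher and 7 lower in xenografts, with a median of -0.08. Between xenografts and spheres 8 were higher and 2 lower, with a median of 0.17. PDLIM3, a protein that binds α-actinin, was at 0.432 times in spheres (adjusted p = 7.9e-05) and 2.55-fold higher in xenografts than in spheres. PLN, the regulator of the calcium pump of the sarcoplasmic reticulum, was at 0.501 times in spheres (adjusted p = 0.0028) and 2.08-fold higher in xenografts than in adherent cells (adjusted p = 0.00299), with the same order of groups as ACTA1. SYNM, an intermediate filament protein, fell in both (0.526 and 0.45 times, adjusted p = 1.2e-05 and 6.37e-06). TAGLN2, a relative of TAGLN, fell to 0.48 times in spheres (adjusted p = 0.04), and MCAM, an adhesion molecule, fell to 0.39 times in xenografts (adjusted p = 9.39e-05).

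Of 19 genes of myosin II and its regulators, 3 were higher and 7 lower in spheres and 0 higher and 9 lower in xenografts, with medians of -0.10 and -0.32. MYH9 and ROCK2, a heavy chain of nonmuscle myosin and a kinase that activates that myosin, fell to 0.534 and 0.506 times in xenografts (adjusted p = 2.62e-05 and 5.58e-05). Of 31 measured genes of actin dynamics, 4 were higher and 13 lower in spheres and 2 higher and 11 lower in xenografts, with medians of -0.21 and -0.23. GSN, which severs filaments, rose 1.92-fold in spheres (adjusted p = 2.57e-05), and CFL1, which encodes the main cofilin of nonmuscle cells, fell to 0.582 times (adjusted p = 3.8e-05). DIAPH3, a formin that elongates filaments, fell to 0.536 times in spheres and 0.558 times in xenografts (adjusted p = 2.07e-05 and 7.49e-05), and SSH1, a phosphatase that activates cofilin, fell to 0.476 times in xenografts (adjusted p = 2.17e-05).

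Newly made actin is folded by prefoldin and the chaperonin CCT and is then trimmed at its N terminus. Of 14 measured genes of these steps, 4 were higher and 5 lower in spheres and 3 higher and 1 lower in xenografts, with medians of -0.21 and -0.01. ACTMAP, the protease that trims the N terminus of actin, rose 2.42-fold in spheres (adjusted p = 2.67e-06) and 1.51-fold in xenografts (adjusted p = 0.00109). Subunits of CCT fell in spheres, where CCT5 was at 0.59 times and CCT7 at 0.654 times the adherent level (adjusted p = 8.03e-05 and 0.000337), while the prefoldin subunit PFDN2 rose 1.83-fold (adjusted p = 5.93e-05).

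The regulators of actin gene transcription were measured for all 10 genes of their list, and 0 were higher and 2 lower in spheres and 2 higher and 4 lower in xenografts, with medians of -0.08 and -0.25. SRF itself had log2 means of 7.83 ± 0.04 for adherent cells, 7.68 ± 0.10 for spheres and 7.36 ± 0.13 for xenografts. It was thus lower in xenografts than in adherent cells by a log2 difference of -0.47 (SE 0.10, adjusted p = 0.00545), and differed by -0.15 in spheres (adjusted p = 0.318). Of its coactivators, MRTFA was lower in spheres by -0.35 log2 (adjusted p = 0.0366) and differed by 0.01 in xenografts (adjusted p = 0.971). MRTFB was lower in spheres by -0.48 (adjusted p = 0.00583) and in xenografts by -0.35 (adjusted p = 0.0377). MYOCD was dim, with means between 3.47 and 3.88, and its differences were -0.14 for spheres (adjusted p = 0.528) and 0.27 for xenografts (adjusted p = 0.158).

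Other regulators differed more. ELK3 and ELK4, cofactors of SRF in the response to growth factors, fell to 0.351 and 0.584 times in xenografts (adjusted p = 9.31e-05 and 0.000446), and in spheres they differed by -0.33 and 0.15 log2 (adjusted p = 0.2 and 0.378). FHL2, a LIM protein that binds SRF, rose 2.78-fold in xenografts (adjusted p = 1.62e-05). ABRA, which activates MRTFs in striated muscle, rose 2.25-fold there (adjusted p = 0.00211), from a dim 2.78 ± 0.17 to 3.96 ± 0.54. ELK1 differed by -0.15 in xenografts (adjusted p = 0.26) and SCAI, which inhibits MRTFA, by -0.36 (adjusted p = 0.0532).

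Of 26 measured target genes of SRF, 7 were higher and 5 lower in spheres, with a median of 0.09, and 5 were higher and 9 lower in xenografts, with a median of -0.06. In spheres the immediate early genes EGR1 and FOS rose 5.85-fold and 1.88-fold (adjusted p = 4.97e-05 and 0.0116), while ACTN1, an actin crosslinker, and ANKRD1, a stress gene of muscle, fell to 0.551 and 0.51 times (adjusted p = 0.00063 and 3.36e-05). The ANKRD1 means, 3.58 in adherent cells and 2.61 in spheres, were both dim. In xenografts the matricellular genes CCN2 and CCN1 fell to 0.262 and 0.42 times the adherent level (adjusted p = 0.00113 and 0.00477). VCL, which links actin to adhesions, was 3.04-fold lower in xenografts than in spheres (adjusted p = 1.9e-07).

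**Figure D5:**
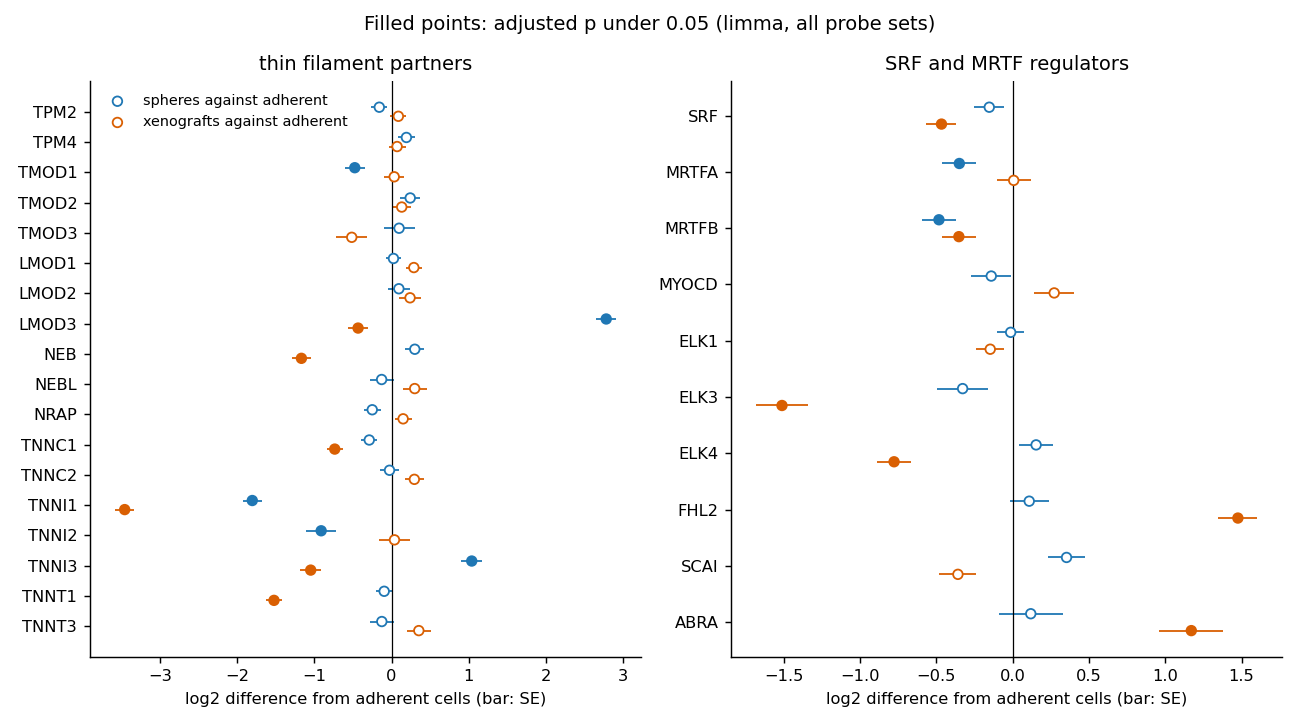
Log2 difference from adherent cells (x axis, bars show the SE) in spheres and xenografts for each measured thin filament partner (left) and each regulator of SRF and MRTF (right); filled points have a limma adjusted p under 0.05 over all probe sets. TNNI1 lies at -1.80 and -3.46 and LMOD3 at 2.78 in spheres, while SRF lies at -0.47 in xenografts.

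Markers of other cell types were read beside the higher ACTA1 and ACTG2 of xenografts. Of 16 measured markers of adult skeletal muscle, which surrounds a tumor in the gastrocnemius, 6 were higher and 2 lower in xenografts than in adherent cells (median 0.32), and their mean log2 level was 5.19 to 5.38 on xenograft arrays, 4.91 to 4.97 on adherent and 4.78 to 4.92 on sphere arrays. MYH4, a fast myosin heavy chain, rose from a log2 mean of 2.30 to 4.70 in xenografts (adjusted p = 1.58e-06), with both means dim, and MYH7, the slow one, rose 1.73-fold from a dim 4.36 (adjusted p = 0.00895). In the other direction, NEB fell as given above and MB, myoglobin, fell by 0.99 log2 (adjusted p = 0.0111). In all, 6 of these 16 markers were below the array's median on all arrays.

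Of 12 markers of fibroblasts and stromal matrix, 5 were higher and 2 lower in xenografts (median 0.44), with mean levels of 6.72, 6.24 and 6.21 on the xenograft arrays and 5.77 to 5.91 on all others, so that xenograft replicate 1, the array with the high ACTG2, was the highest. LUM, which encodes lumican, rose 7.05-fold (adjusted p = 0.000573) and COL1A2 2.46-fold (adjusted p = 0.000404). Both rose from dim adherent means, LUM from 4.29 to 7.11 ± 1.04 and COL1A2 from 4.75 to 6.05 ± 0.44. In the other direction, PDGFRB, which is on this list and on the next, fell to 0.571 times (adjusted p = 0.000105). The mean level of 11 markers of pericytes and vascular smooth muscle, cells known for ACTA2 and TAGLN, was 5.74 to 5.88 on xenograft and 5.87 to 5.90 on adherent arrays, with 2 markers higher and 3 lower and a median difference of 0.11. PLN and MCAM, given above, are on this list, and CSPG4 and PDGFRB, surface proteins of pericytes, fell to 0.403 and 0.571 times the adherent level (adjusted p = 5.31e-05 and 0.000105). Of 10 endothelial markers 1 was higher (median 0.23) and 6 were below the array's median on all arrays. Of 8 markers of macrophages and leukocytes 1 was higher (median 0.17) and 6 were below, and of 5 of blood 2 were higher (median 0.27) and 2 were below.

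None of the 12 markers of FP-RMS was below the array's median on all arrays, and they had a mean level of 9.53 to 9.56 in adherent cells, 9.03 to 9.11 in spheres and 9.44 to 9.46 in xenografts, with 5 lower and 0 higher in spheres and 4 lower and 2 higher in xenografts. The part of host or stromal cells in the values of the actins was not tested. In bulk RNA a change in the number of cells of a type and a change in the RNA per cell cannot be told apart.

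The genes whose pattern over the 9 arrays came nearest to that of ACTA1 were found by the root mean square distance of log2 values, each taken relative to the adherent mean, among 2144 genes whose group means span at least 1 log2. They were CLEC11A (0.648 log2), a secreted growth factor, PLPPR1 (0.732), DRC9 (0.732), LUM (0.737) and the fast myosin MYH4 (0.844). All are higher in xenografts, by 2.06 to 3.57 log2, and PLPPR1 and DRC9 were also lower in spheres, by -1.00 and -0.94 log2, as was ACTA1. ACTA2 and TAGLN span 0.29 and 0.36 log2 between the groups, too little for such a comparison. The distance describes 9 arrays that share their groups, and carries no test.

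Over all probe sets, r between arrays was 0.990 to 0.998 within a group and 0.965 to 0.987 between groups. The median value of an array was between 4.78 and 4.87, and the median log2 difference between xenografts and spheres over all genes, 0.13, is to be set beside the differences between these groups. With 3 arrays a group, the number of arrays limits the precision.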

How the data were processed

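Total RNA of 9 samples (3 of adherent Rh30 cells, 3 of spheres and 3 of xenografts) was labelled and hybridised to Affymetrix U133 Plus 2.0 arrays. Log2 values were deposited and used as they are. The authors had made them by RMA on all arrays at once, with background correction, quantile normalization and a summary of each probe set. The version of RMA is not given in the sources used here. RMA draws the arrays towards 1 distribution, so that differences are relative to the bulk of the probe sets.

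Leaving out 62 control probe sets, limma 3.58.1 (R 4.3.3) was run on 54613, with 1 coefficient per group and moderated variances. Benjamini-Hochberg adjustment spanned all 54613, and the threshold was 0.05. By the array's annotation 41091 probe sets had 1 symbol, 1801 several and 11721 none. A gene of a list was its brightest probe set with 1 symbol. ACTB controls were compared by exact permutation of arrays. Groups and replicate numbers came from the sample titles. Members and lists were chosen with earlier results of these data known. The lists were thin filament partners, smooth muscle genes, myosin II and its regulators, actin dynamics, actin folding and maturation, SRF and MRTF regulators, SRF target genes, and markers of 7 cell types. The genes named are all members, all SRF and MRTF regulators, up to 4 called genes per list and comparison with the largest differences among those whose arrays did not overlap, and the 5 genes nearest in pattern to ACTA1, ACTA2 and TAGLN where these span 1 log2.

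Same-numbered arrays did not deviate together (r of -0.177 to 0.183, over 0.1 in 2 of 9 pairs), so the replicate numbers do not pair them. The alternatives were quantile normalization, median centring, the brighter probe sets only, the 2 compared groups only and a variance trend with robust estimation. Further alternatives were the replicate number as a block, an unpaired t-test, each array left out in turn, and other choices of probe set per gene. The paper lists the unpaired t-test among its statistics and names no test for the arrays. The scripts were tested on simulated data. The text gives fewer genes than this rule allows, and 1 of them is not reported here. Protein sequences were not used here.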

Additional observations from a re-analysis of the deposited data

How the results depend on the processing

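Over the alternatives, 492 of 501 values of the members' differences moved by less than the larger SD of the 2 groups compared. This rule does not look at the side of the threshold. Many of the values could not move. Settings that change only the spread, the probe sets tested or the third group leave a difference as it was. The 492 are therefore no measure of robustness. Of the values outside the 492, 5 moved further and 4 reversed. The 4 are those of TPM1: with the mean of all its probe sets, xenografts differed from adherent cells by -0.41 and from spheres by -0.12 log2, and with the brightest probe set whose ID lacks _x_at and _s_at by -0.51 and -0.21, against 0.98 and 1.34 for the brightest. This follows from probe sets that disagree. The members' probe sets called were 9 (spheres, adherent), 5 (xenografts, adherent) and 11 (xenografts, spheres), the order kept below. They were 10, 6 and 12 after quantile normalization, 11, 5 and 11 after median centring, and 10, 5 and 12 with the replicate block, which moved no count by over 1.5 times. With 1 array left out they were 8 to 12, 5 to 6 and 11 to 13. An unpaired t-test, in which each probe set has its own estimate of the spread, gave 14, 7 and 12 unadjusted and 10, 4 and 6 adjusted. Of the 129 genes of the lists, 63, 60 and 77 were called, and 62, 53 and 70 with the replicate block. These counts were 48 to 71, 46 to 73 and 58 to 78 with 1 array left out. The adjusted t-test called 31 (xenografts against adherent) and 47 (xenografts against spheres). The 3′ to 5′ difference of ACTB in xenografts against adherent cells, 0.09, was -0.0717 without adherent replicate 1 and -0.0412 without xenograft replicate 3, in a range of -0.0717 to 0.227. That of spheres against adherent cells was 0.65 to 0.95 and that of xenografts against spheres -0.85 to -0.63 with 1 array left out.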

Other observations

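ACTC1 was compared with all genes in the same way as ACTA1, a choice made after its values were seen. The genes with the nearest pattern among the 2144 were VASH2, a tubulin carboxypeptidase, at a root mean square distance of 0.0912 log2, CLMN (0.122), TIMP2, an inhibitor of matrix metalloproteinases (0.149), KCND3, a potassium channel (0.157), and SLC39A10, a zinc importer (0.165). Each was lower than in adherent cells by 1 to 2 log2 in both other groups: VASH2 differed by -1.51 in spheres and -1.19 in xenografts, and TIMP2 by -1.38 and -1.43, where ACTC1 itself differed by -1.44 and -1.25. These distances are smaller than the 0.648 of the gene nearest to ACTA1, whose pattern spans 4.22 log2 between the groups against 1.44 for ACTC1.

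Within the list of FP-RMS markers, MYOG, the muscle differentiation factor myogenin, and the receptor ALK fell in spheres as did ACTC1, by a log2 difference of -0.91 and -1.43 (limma adjusted p = 2.79e-05 and 1.19e-06), but in xenografts MYOG differed from adherent cells by 0.00 (adjusted p = 0.988) and ALK by -0.30 (adjusted p = 0.0449). DES, which encodes the intermediate filament desmin, was lower in both, by -0.38 and -0.51 (adjusted p = 0.0176 and 0.00487).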
